A study of Mus musculus with 18 samples.

Results

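Elovl6, an enzyme that lengthens fatty acids, and 9 other genes of fatty acid elongation, desaturation and synthesis were followed in mouse naive CD4 T cells given IL-27, IL-6 or medium, with and without the transcription factor STAT3. All probe sets that carry the symbol of Elovl1, Elovl5, Elovl6, Elovl7, Scd1, Scd2, Fasn, Acaca, Acly or Srebf1 alone were taken, which gave 30 of the 34945 probe sets with a single gene symbol. Of the 30, 18 passed the filter on dim probe sets and all 10 genes kept at least 1 of them, among 26860 probe sets of 11971 named genes and of unnamed transcripts tested in all. The genes were chosen on measured values: Elovl6 was selected from its response to IL-6 in WT cells on these same arrays, so its values on the arrays of WT cells in IL-6 and in medium are given as a description with no test. The other 9 genes were put beside it for their place in the same pathway.

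The 18 arrays held 6 groups of 3: STAT3-deficient cells with IL-27, with IL-6 or with medium alone, and WT cells with IL-27, with IL-6 or with medium alone. Cytokines were at 20 ng/ml and the cultures lasted 3 h. All cells were CD4+CD44-CD62L+CD25- T cells sorted from spleen and lymph nodes of C57BL/6J mice, and all were primary cells rather than a line. The deficient cells carried Cd4-Cre with the STAT3 allele tm1Dlv, so Cre was driven by the Cd4 promoter, which is active in T cells and leaves STAT3 in the other cells of the animal. The labels used here give no age or sex of the mice.

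Fatty acids are built in the cytosol from citrate. Acly, ATP citrate lyase, splits citrate into acetyl-CoA, Acaca, acetyl-CoA carboxylase, makes malonyl-CoA from it, and Fasn, fatty acid synthase, joins these units into palmitate. In the endoplasmic reticulum the elongases of the Elovl family add carbons to the chain, Elovl6 turning palmitate into stearate, and Scd1 and Scd2, stearoyl-CoA desaturases, set a double bond into the product. Srebf1 encodes SREBP1, a transcription factor that drives most of these genes in the liver. Resting T cells make little fatty acid and raise its synthesis on activation, and in mice Acaca is needed for the development of Th17 cells. The receptors of both cytokines share the chain gp130, through which both activate STAT3.

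Signals below are quantile-normalised probe set signals on the linear scale. A log2 change is the difference of group means of log2(signal + 32), and a fold is taken from it, which understates the change of dim probe sets. The ± after a log2 change is its SE, and the ± after a mean signal is the SD of 3 arrays. Adjusted p-values are from limma over all 26860 probe sets, and a probe set was called at an adjusted p under 0.05. Signals of different probe sets cannot be set against each other. Precision is limited by how many arrays there are.

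The targeted gene was read by 4 probe sets. In medium, Stat3 signal in STAT3-deficient cells was below that of WT cells on probe set 1460700_at (log2 change -1.11 ± 0.12, limma adjusted p = 1.15e-05) and on 1426587_a_at (-0.92 ± 0.13, adjusted p = 9.76e-05), and higher on 1424272_at (0.80 ± 0.27, adjusted p = 0.0345). The fourth, 1459961_a_at, was not called (0.12 ± 0.20, adjusted p = 0.704). Which of them lie in the deleted part of the gene is not given in the files, so a probe set outside it checks nothing. Within STAT3-deficient cells Stat3 signal on 1460700_at rose with IL-27 (1.77 ± 0.12, limma adjusted p = 6.65e-09) and with IL-6 (1.005 ± 0.12, adjusted p = 2.92e-05). The arrays with IL-27 read 3340 to 4608 on it, above the 2293 to 2940 of WT cells in medium. 1426587_a_at and 1459961_a_at also rose with both cytokines, and 1424272_at was called with neither. Whether STAT3 protein remained was not tested. The 8 naive CD4 T cell markers on the array were above the median of their array on all 18 arrays. The summed signal of 9 B cell markers was 6048 to 8752 in STAT3-deficient cells with IL-27, 6638 to 9759 with IL-6 and 7065 to 9614 in medium, against 4054 to 4770, 3166 to 3697 and 5612 to 6112 in WT cells with IL-27, IL-6 and medium. The summed signal of 10 myeloid markers was 1513 to 1707, 1412 to 1826 and 1393 to 1638 in the same 3 STAT3-deficient groups, against 1058 to 1150, 825 to 1030 and 1153 to 1459 in the WT groups. Of the B cell markers, Ms4a1 and Ighm were above the median of their array on all 18 arrays and Pax5 on none, and the other 6 on 2 to 16 arrays. Ighm, at 2355 to 7951, weighs most in the B cell sum. Ms4a1 and Cd79b were higher on every STAT3-deficient array than on every WT array, and the other B cell markers, Ighm among them, were not. Of the myeloid markers, Csf1r was above the median of its array on all 18 arrays and Itgam, Cd14 and Clec4a2 on none, and the other 6 on 6 to 13 arrays. Lyz2 alone of these was higher on every STAT3-deficient array than on every WT array. The summed signal of 6 adipocyte markers was 639 to 914, 644 to 737 and 681 to 909 in the STAT3-deficient groups with IL-27, IL-6 and medium, against 393 to 705, 599 to 618 and 489.5 to 891 in the WT groups. Of these markers, Adipoq, Lep and Cidec were above the median of their array on no array, Fabp4 on 2, Retn on 12 and Car3 on 15. No marker of these lists was listed at 0. The part of adipocyte RNA in the results was not tested. The summed signal of 7 CD8 T and NK cell markers was 1855 to 2160, 2194 to 2217 and 2104 to 2430 in the STAT3-deficient groups in that order, against 2216 to 2607, 2029 to 2180 and 3015 to 3473 in the WT groups. The first principal component, with 33.8% of the variance, set the genotypes apart. In such bulk samples fewer cells of a type and less RNA per cell cannot be told apart.

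The stretches upstream of Elovl6, the member with the largest response, and of Fasn, which feeds it with palmitate, are shown. They are the 250 bases before the transcript start that the RefSeq table of upstream windows (GRCm38.p6) gives, of Elovl6 on the + strand of chr3:129532136-129532385 and of Fasn on the - strand of chr11:120824548-120824797. The Elovl6 window ends where the annotated gene begins, and the Fasn window lies inside the annotated span of its gene. The motifs searched on both strands were TTCNNNGAA, a form of the site that STAT factors bind, CCAAT, the core of the site of NF-Y, and CACGTG, the E-box, and matches are in capitals.
Elovl6: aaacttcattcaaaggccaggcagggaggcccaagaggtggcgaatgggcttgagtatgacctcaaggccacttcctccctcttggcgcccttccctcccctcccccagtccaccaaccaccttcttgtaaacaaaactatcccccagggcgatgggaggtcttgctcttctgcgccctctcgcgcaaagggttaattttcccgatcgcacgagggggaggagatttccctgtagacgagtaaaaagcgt
Fasn: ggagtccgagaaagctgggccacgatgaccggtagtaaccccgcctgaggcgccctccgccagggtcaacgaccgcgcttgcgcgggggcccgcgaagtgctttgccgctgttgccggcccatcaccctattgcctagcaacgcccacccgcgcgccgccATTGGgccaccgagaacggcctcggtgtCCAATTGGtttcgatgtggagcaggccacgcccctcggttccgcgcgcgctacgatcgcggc
Elovl6 held none of the 3 motifs in this window, and Fasn held 3 matches to CCAAT, of which 2 overlap each other on opposite strands. Of 32851 upstream windows of the same length, 7.02% held TTCNNNGAA, 33.8% held CCAAT and 6.02% held CACGTG. These are matches of letters and not binding sites, and no match says only that these letters are not in this window. Windows were at hand for 8 of the 10 genes.

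Elovl6 had its highest signal in WT cells with IL-6 and its next highest in WT cells with IL-27, while the 3 STAT3-deficient groups and WT cells in medium lay far lower. On probe set 1417404_at the signals were 346, 370.4 and 421 in STAT3-deficient cells with IL-27, 305, 300.0 and 321 with IL-6 and 218, 241 and 306 in medium. In WT cells they were 2238, 1947 and 1836 with IL-27, 5701, 6478 and 6364 with IL-6 and 399, 370.2 and 424 in medium. Every array of WT cells with a cytokine was above every array of the other 4 groups, and no array with IL-27 reached an array with IL-6. On probe set 1417403_at the means were 218 ± 54.8, 186 ± 43.2 and 143 ± 31.1 in STAT3-deficient cells with IL-27, IL-6 and medium. The WT means were 1076 ± 136, 3474 ± 282 and 249 ± 46.5 in the same order (SD, n = 3 each). The order of the groups was the same on both probe sets. Neighbours in that order that overlapped were STAT3-deficient cells with IL-27 against WT cells in medium on both probe sets, and the STAT3-deficient groups among themselves, except that the 3 arrays with IL-27 were above those with IL-6 and those in medium on 1417404_at.

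**Figure D1:**
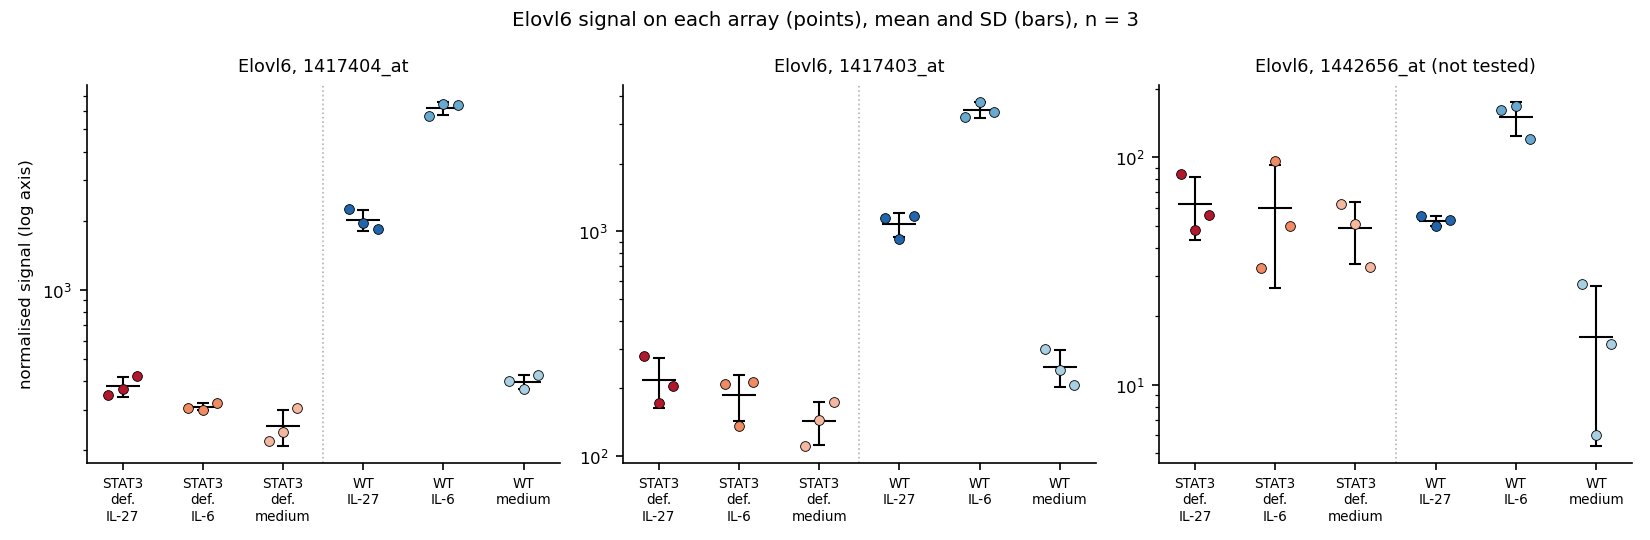
Normalised signal (log axis) of the 3 Elovl6 probe sets in the 6 groups, with 1 point per array and bars for the mean and SD (n = 3). WT cells with IL-6 (mean 6181 on 1417404_at) and with IL-27 (mean 2007) stand above the other 4 groups, whose means on that probe set lie between 255 and 398.

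The change of Elovl6 with IL-6 in WT cells, the value it was chosen for, was 3.85 ± 0.13 on the log2 scale, or 14.4-fold, on 1417404_at and 3.65 ± 0.19 on 1417403_at. It was the 4th largest increase of 11971 genes. With IL-27 in WT cells it was 2.24 ± 0.13, or 4.73-fold, and 1.99 ± 0.19, the 36th largest. These 2 comparisons share the arrays in medium. On the signal scale the increase with IL-27 came to 27.8% and 25.7% of the increase with IL-6 on the 2 probe sets. Between the cytokines, IL-27 against IL-6, the log2 change was -1.61 ± 0.13 and -1.67 ± 0.19.

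The third Elovl6 probe set, 1442656_at, lay just outside the filter, being above the median of its array on 2 arrays where 3 were asked for. Its signals were 84.1, 47.7 and 55.8 in STAT3-deficient cells with IL-27, 32.5, 96.4 and 50.0 with IL-6 and 62.1, 50.9 and 33.0 in medium. In WT cells they were 55.1, 49.9 and 52.9 with IL-27, 161, 167 and 119.8 with IL-6 and 27.6, 6.02 and 15.1 in medium. All 3 arrays of WT cells with IL-6 were above the other 15. Those of WT cells with IL-27 were above those in medium but lay within the range of the STAT3-deficient groups, unlike on the other 2 probe sets. Among the tested members the one above its array's median on the fewest arrays was Elovl7 1424097_at, on 9, followed by Acaca 1427595_at on 11 and Scd1 1415964_at on 12. The other 11 untested probe sets were 5 of Elovl7, 3 of Acly and 1 each of Elovl1, Scd1 and Scd2, and all but Acly 1446315_at, above its array's median on 2 arrays, were above it on none.

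In STAT3-deficient cells the change of Elovl6 was small. With IL-27 against medium in STAT3-deficient cells, Elovl6 rose by a log2 change of 0.53 ± 0.13 (1.44-fold, adjusted p = 0.0245) on 1417404_at, with the arrays of the groups apart. The change on 1417403_at was 0.51 ± 0.19 (adjusted p = 0.201), with overlapping arrays. The call on 1417404_at was lost without quantile normalisation, with a log2 change of 0.31, and also with median centring, with only the arrays compared, without array 2 or 3 of STAT3-deficient cells in IL-27 and without array 1 or 2 in medium. The adjusted p over its alternatives ran from 0.00653 to 0.306. With IL-6 against medium in STAT3-deficient cells the log2 change was 0.26 ± 0.13 (adjusted p = 0.676, 95% interval -0.01 to 0.53) and 0.31 ± 0.19 (adjusted p = 0.797). IL-27 and IL-6 were not told apart in these cells by the test (0.27 ± 0.13, adjusted p = 1).

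Set directly against each other in IL-27, a comparison added after the data were seen because it holds no array of the contrast that Elovl6 was chosen for, STAT3-deficient cells had less Elovl6 than WT cells. The means were 379 ± 38.0 in STAT3-deficient cells and 2007 ± 207 in WT cells (SD, n = 3 each), a log2 change of -2.31 ± 0.13, or 4.96-fold lower (adjusted p = 3.01e-09). On 1417403_at the log2 change was -2.16 ± 0.19 (adjusted p = 1.41e-06), and Elovl6 was the gene with the largest decrease of 11971. Since the comparison was picked with these values seen, its p-values and rank are not an independent test. With a covariate made from the mean of the B cell and myeloid markers, which follows the genotype, the values were -1.98 (adjusted p = 0.0142) and -1.56 (adjusted p = 0.197). The IL-6 effect in STAT3-deficient cells minus that in WT cells was -3.59 ± 0.18 and -3.34 ± 0.27 on the 2 probe sets, the largest decrease of 11971 genes. This difference contains the change in WT cells that Elovl6 was chosen for, so its rank repeats that choice. The IL-27 effect differed in the same way by -1.72 ± 0.18 and -1.47 ± 0.27. In medium, STAT3-deficient against WT, the log2 change was -0.59 ± 0.13 and -0.69 ± 0.19, and -0.30 and -0.15 with the marker covariate.

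With IL-6 in WT cells, 5 of the 18 member probe sets were called, 2 higher and 3 lower, where 6.19% of all 26860 were. The 2 higher are those of Elovl6, whose call repeats its choice, and the 3 lower are both probe sets of Elovl5 and 1 of Scd2. Beside these changes, the summed signal of the 8 naive CD4 T cell markers was 87481 to 89871 with IL-6 and 123080 to 126990 in medium, and 6 of the 8 were lower with IL-6. Of 7 tested B cell markers 1 was lower, and of 7 tested myeloid markers 1 was lower. With IL-27 in WT cells, 3 of 18 were called, the 2 of Elovl6 and 1 of Elovl5, against 3.06% of all. In IL-27 against IL-6 in WT cells, 4 of 18 were called, with the 2 of Elovl6 and Fasn lower and Scd2 higher, against 2.32% of all. In these 2 comparisons too the calls of Elovl6 rest on arrays it was chosen on. They add nothing when the counts are set beside the shares of all probe sets. Over the 10 genes, each read from its brightest probe set, the median log2 change with IL-6 was -0.12, and it was -0.02 over all 11971 genes. These 3 comparisons share arrays pairwise.

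**Figure D2:**
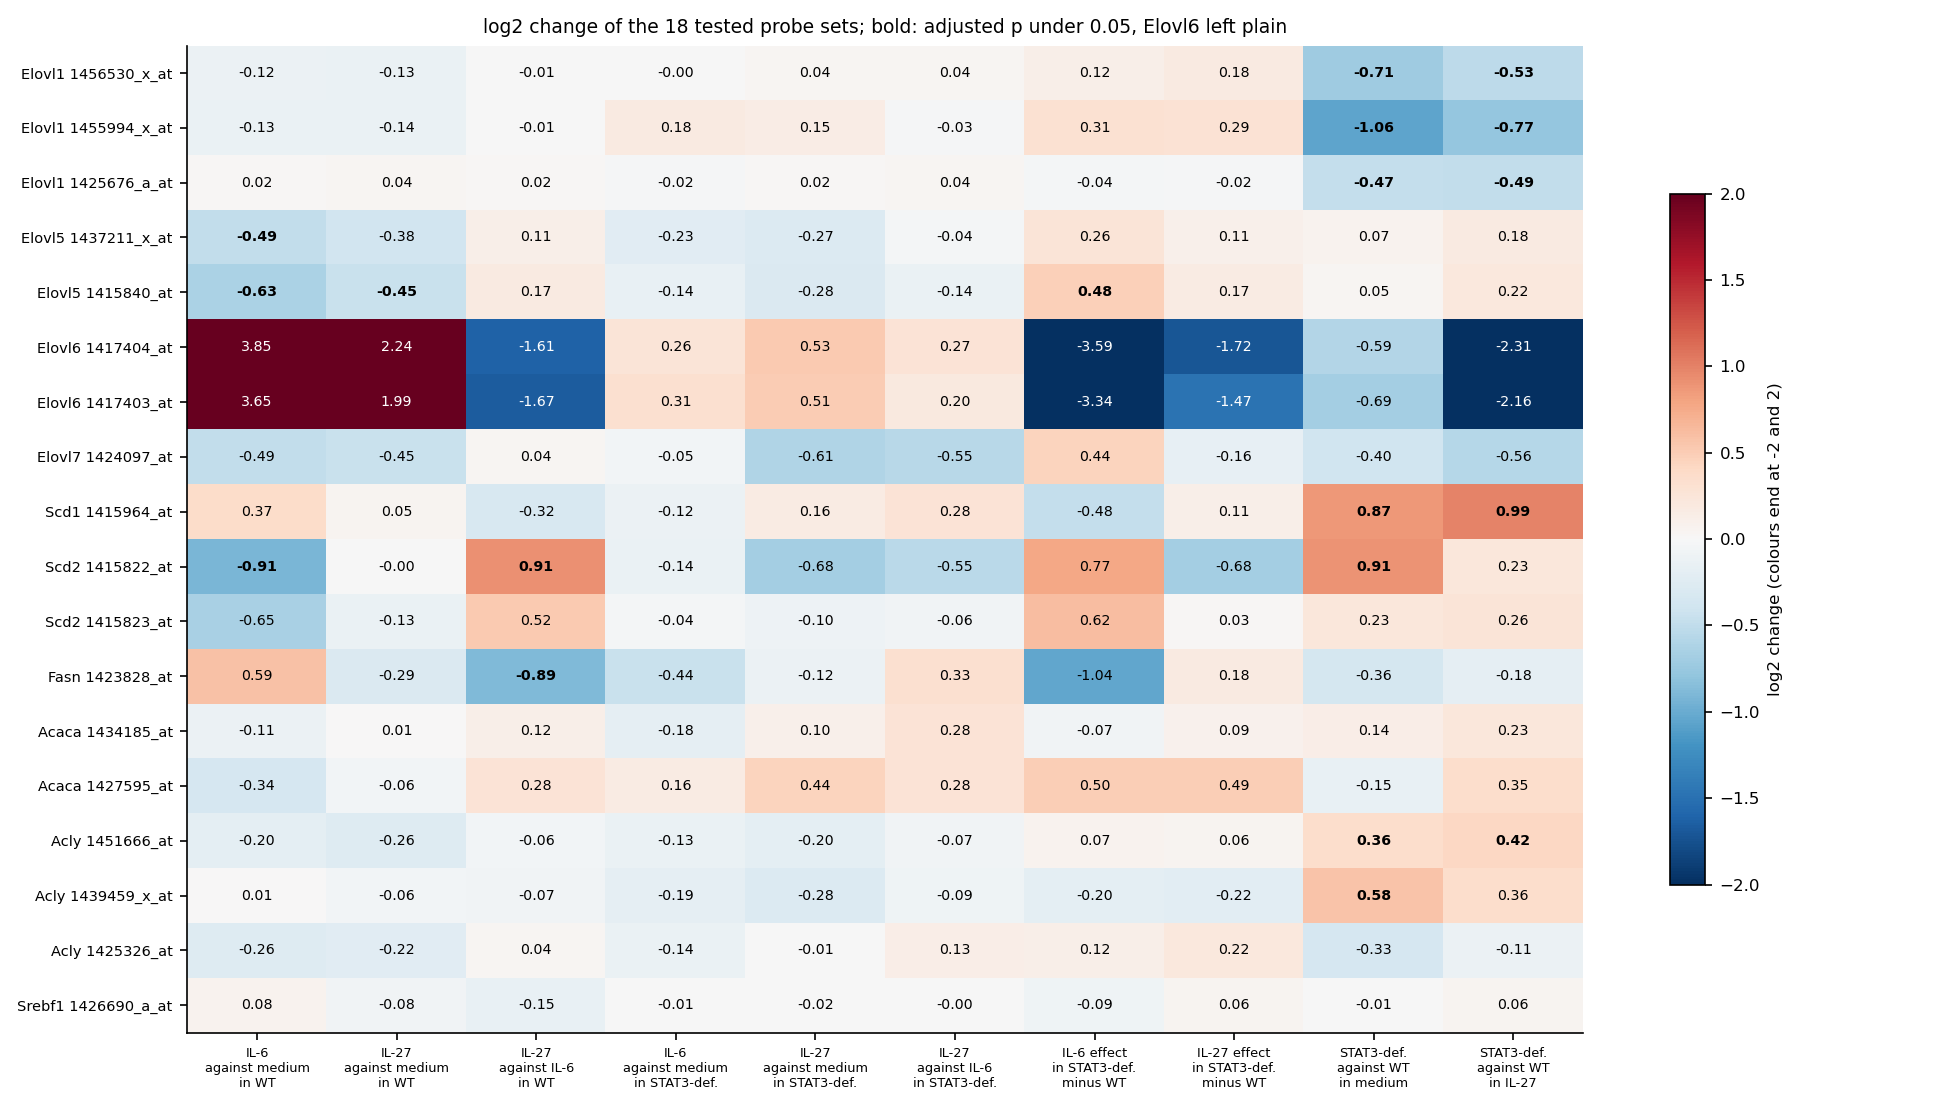
The log2 change of each of the 18 tested probe sets (rows) in the 10 comparisons (columns), printed in each cell and coloured, with blue for lower and red for higher and the colours ending at -2 and 2. Bold marks an adjusted p under 0.05, with Elovl6 left plain since it was chosen on these arrays. The Elovl6 rows reach 3.85 and -3.59, and the other rows stay between -1.06 and 0.99.

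Elovl5, which lengthens polyunsaturated fatty acids, went the other way from Elovl6 in WT cells. On 1415840_at the signals in WT cells were 8244, 8504 and 8854 with IL-27, 6812, 7951 and 7984 with IL-6 and 11605, 11945 and 11496 in medium. Both cytokine groups were below all arrays in medium. Elovl5 fell with IL-6, with a log2 change of -0.63 ± 0.08 (adjusted p = 2.27e-05), and with IL-27, with -0.45 ± 0.08 (adjusted p = 0.00145). The other probe set, 1437211_x_at, gave -0.49 ± 0.11 with IL-6 (adjusted p = 0.00862) and -0.38 ± 0.11 with IL-27 (adjusted p = 0.0801). On it the means were 13240 ± 1247, 13609 ± 1077 and 15948 ± 783 in STAT3-deficient cells with IL-27, IL-6 and medium, and 11703 ± 1434, 10813 ± 1395 and 15233 ± 2000.1 in WT cells (SD, n = 3 each). Its call with IL-6 was lost with median centring, with the marker covariate, without array 1 or 2 of WT cells with IL-6 or array 3 in medium, and the call of 1415840_at with IL-27 was lost with median centring (adjusted p = 0.169).

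In STAT3-deficient cells Elovl5 had signals of 10399, 9860.1 and 9502 with IL-27, 11531, 10212 and 11002 with IL-6 and 12622, 11028 and 12591 in medium on 1415840_at. The arrays with IL-27 were all below those in medium, and those with IL-6 overlapped them. The log2 change was -0.28 ± 0.08 with IL-27 (adjusted p = 0.0549) and -0.14 ± 0.08 with IL-6 (adjusted p = 0.734). The IL-6 effect was less negative in STAT3-deficient cells than in WT cells by 0.48 ± 0.11 (adjusted p = 0.0243) on 1415840_at and by 0.26 ± 0.16 (adjusted p = 0.582) on 1437211_x_at. The first of these calls was lost in 10 of 24 alternatives, among them without array 1 or 3 of STAT3-deficient cells with IL-6, without array 2 in medium, without array 1 of WT cells with IL-6 and without array 1 or 2 in medium. The adjusted p over the alternatives ran from 0.00634 to 0.139.

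Where the effect of IL-6 was compared across genotypes, 3 of 18 member probe sets were called, where 2.21% of all were. They were the 2 of Elovl6, whose calls repeat its choice, and this one of Elovl5. For the IL-27 effect it was 1 of 18, Elovl6 1417404_at, whose call again repeats its choice, against 0.00745% of all, or 2 probe sets in 26860.

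Scd2, the desaturase form found widely outside the liver, was lowest in WT cells with IL-6. On 1415822_at the signals were 333, 269 and 206 with IL-27, 112, 133 and 135 with IL-6 and 399, 188 and 245 in medium in WT cells. The 3 arrays with IL-6 were below all others of the WT groups and close to each other, while those in medium were far apart and spanned those with IL-27. On the 3 with IL-6 the probe set was not above the median of its array, unlike on all other arrays, so the lowest signals are dim. Scd2 fell with IL-6, with a log2 change of -0.91 ± 0.22 (adjusted p = 0.0131), and in IL-27 against IL-6 was higher by 0.91 ± 0.22 (adjusted p = 0.0292). With IL-27 against medium the change was -0.0019 ± 0.22 (adjusted p = 0.999, 95% interval -0.46 to 0.45). The call with IL-6 was lost without array 1 of WT cells with IL-6 or array 1 in medium, and that of IL-27 against IL-6 without array 1 or 2 with IL-27 or any 1 of the 3 with IL-6. The adjusted p over the alternatives ran from 0.00412 to 0.103 for IL-6 and from 0.0144 to 0.166 for IL-27 against IL-6. The second probe set, 1415823_at, gave -0.65 ± 0.28 with IL-6 (adjusted p = 0.241), with means of 174 ± 31.8, 115 ± 46.0 and 195 ± 54.1 in WT cells with IL-27, IL-6 and medium.

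In STAT3-deficient cells the same Scd2 probe set had 258, 408 and 296 with IL-27, 447, 484 and 494 with IL-6 and 487, 538 and 552 in medium. The arrays with IL-27 were below those with IL-6 and in medium, with a log2 change against medium of -0.68 ± 0.22 (adjusted p = 0.107). Scd1, the form best known from liver, had signals of 316, 298 and 214 in STAT3-deficient cells with IL-27, 296, 210.1 and 167 with IL-6 and 317, 240.3 and 180.3 in medium. Its WT signals were 128, 76.2 and 179.5 with IL-27, 93.3, 192 and 219 with IL-6 and 128, 94.0 and 132 in medium. The cytokines did not move it past the test in either genotype, with log2 changes of 0.37 ± 0.29 for IL-6 (adjusted p = 0.653) and 0.05 ± 0.29 for IL-27 (adjusted p = 0.972) in WT cells.

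Fasn was highest in WT cells with IL-6. Its single probe set had 830.2, 789 and 819 in WT cells with IL-27, 1692, 1371 and 1539.9 with IL-6 and 1112, 886 and 1026 in medium. The 3 WT groups did not overlap, those with IL-6 above and those with IL-27 below the ones in medium. The log2 change with IL-6 was 0.59 ± 0.20 (adjusted p = 0.09) and that with IL-27 was -0.29 ± 0.20 (adjusted p = 0.601), and the IL-6 change passed the test in 4 of 18 alternatives. In IL-27 against IL-6, Fasn was lower, with a log2 change of -0.89 ± 0.20, or 1.85-fold (adjusted p = 0.015), a call that was lost without any 1 of the 3 arrays with IL-27, without array 1 or 3 with IL-6, and with the marker covariate, where the change was -0.58. The adjusted p over its alternatives ran from 0.00088 to 0.15.

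In STAT3-deficient cells Fasn had 665, 689.7 and 792 with IL-27, 658, 362 and 744 with IL-6 and 659, 743 and 958 in medium, and the groups overlapped. The log2 change with IL-6 there was -0.44 ± 0.20 (adjusted p = 0.573), and the IL-6 effect differed between the genotypes by -1.04 ± 0.28 (adjusted p = 0.0588). That difference passed the test in 7 of 25 alternatives.

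**Figure D3:**
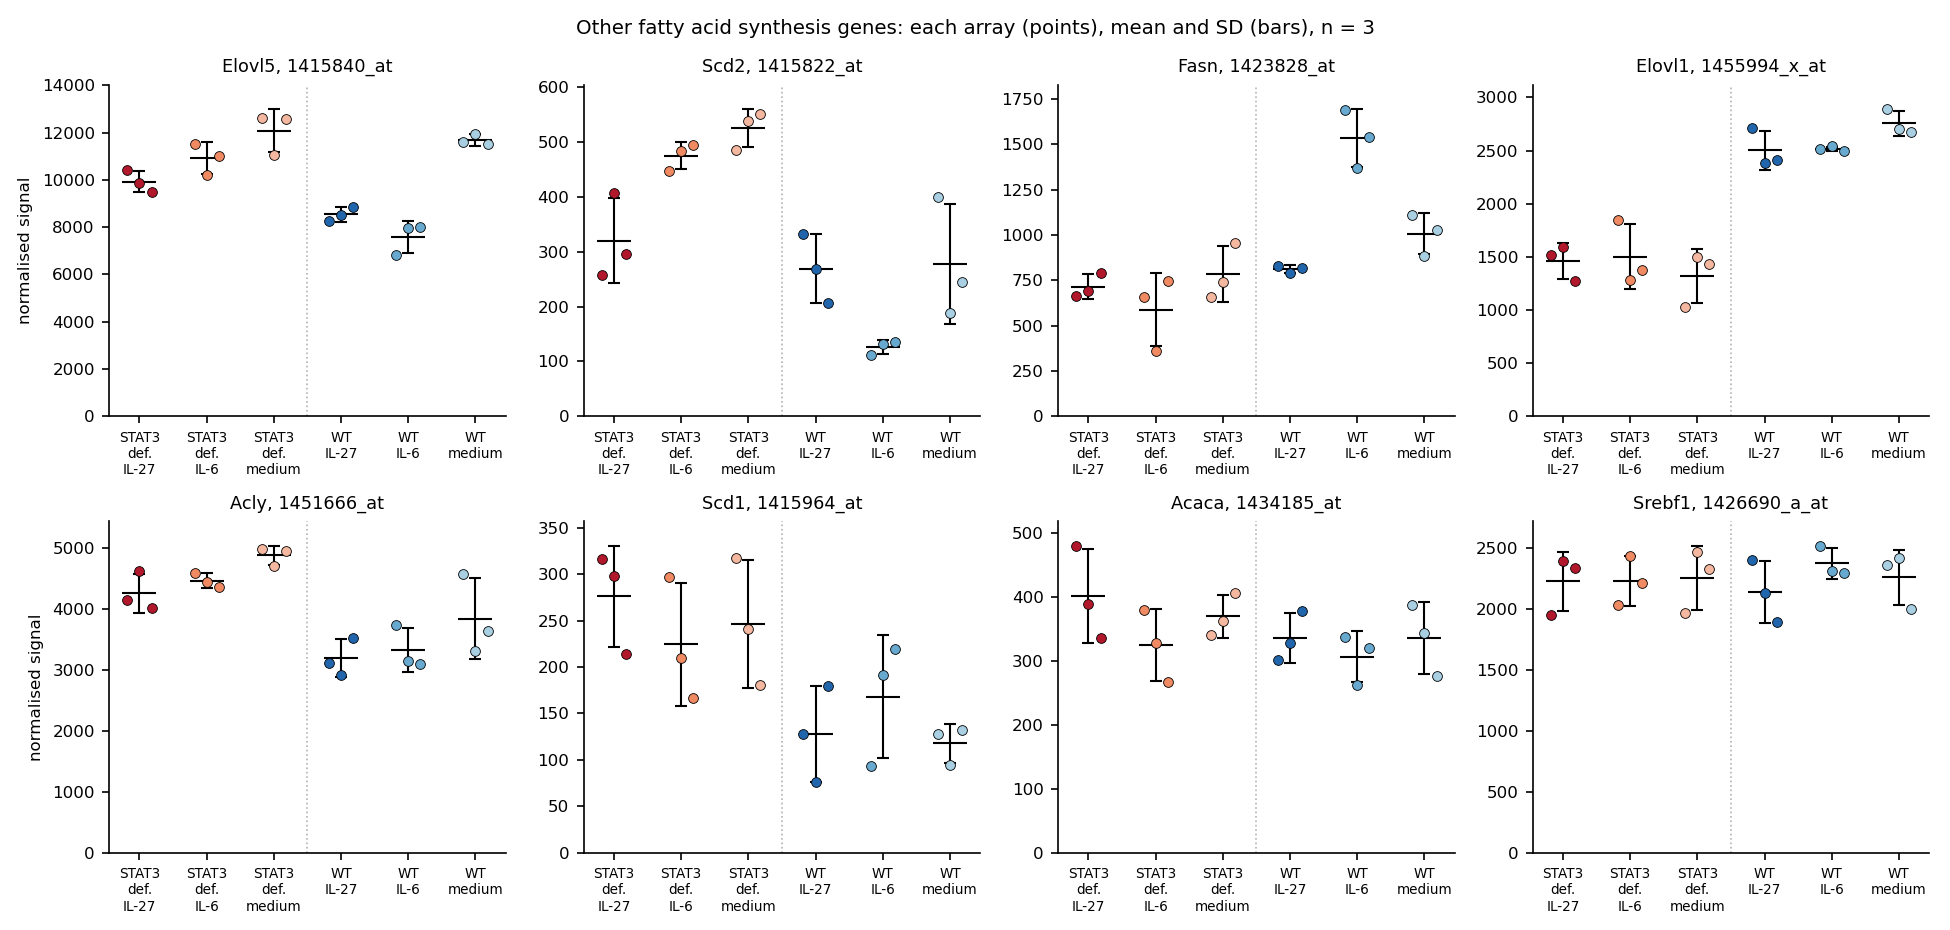
Normalised signal of 1 probe set each of Elovl5, Scd2, Fasn, Elovl1, Acly, Scd1, Acaca and Srebf1 in the 6 groups, with 1 point per array and bars for the mean and SD (n = 3). Fasn is highest in WT cells with IL-6 (mean 1534), Scd2 is lowest there (mean 127), and Elovl1 is lower in all 3 STAT3-deficient groups than in the WT groups.

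Acly, Acaca, Srebf1, Elovl1 and Elovl7 were not called with either cytokine in either genotype. Over their 10 tested probe sets the log2 changes with IL-6 in WT cells ran from -0.49, in Elovl7, to 0.08, in Srebf1. Srebf1 itself had means of 2229 ± 243, 2229.5 ± 202 and 2254 ± 262 in STAT3-deficient cells with IL-27, IL-6 and medium, and of 2143 ± 254, 2376 ± 126 and 2260.0 ± 227 in WT cells (SD, n = 3 each). Its 95% interval for IL-6 in WT cells was -0.18 to 0.33 on the log2 scale. Acaca, the carboxylase, had 481, 389 and 336 in STAT3-deficient cells with IL-27, 379.9, 329 and 267 with IL-6 and 341, 363 and 407 in medium on 1434185_at. In WT cells it had 302, 328 and 378 with IL-27, 338, 263 and 321 with IL-6 and 388, 344 and 276 in medium, and the groups overlapped. Acaca had an interval of -0.47 to 0.25 on 1434185_at, Acly 1451666_at one of -0.43 to 0.04, and Elovl1 1456530_x_at one of -0.37 to 0.12. Elovl7, which lengthens saturated chains, was dim. Its signals were 52.8, 86.1 and 117 in STAT3-deficient cells with IL-27, 92.9, 139 and 188 with IL-6 and 129, 118 and 186 in medium, and 175, 209 and 64.2 with IL-27, 117, 132 and 148 with IL-6 and 203, 189 and 202 in medium in WT cells. Arrays with IL-27 were below those in medium in STAT3-deficient cells, and arrays with IL-6 below those in medium in WT cells, while the other pairs of groups within a genotype overlapped. Its interval for IL-6, -1.14 to 0.16, was among the widest of the members.

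In STAT3-deficient cells, 0 of the 18 probe sets were called with IL-6 against medium, where 1.43% of all were by limma, and 0 in IL-27 against IL-6, where 0.205% of all were. With IL-27 against medium it was 1 of 18, the Elovl6 probe set above, against 3.6% of all. At an unadjusted p under 0.05, 1 member probe set differed with IL-6, 1 in IL-27 against IL-6 and 6 with IL-27 in these cells, where 7.70%, 4.75% and 14.2% of all probe sets did in the same order.

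STAT3-deficient against WT cells in medium differed over much of the array, and 9 of the 18 member probe sets were called, 4 higher and 5 lower, where 24.3% of all were. The 5 lower were the 3 of Elovl1 and the 2 of Elovl6, which has no test there, and the 4 higher were 2 of Acly and 1 each of Scd1 and Scd2. The 2 calls of Elovl6 rest on arrays it was chosen on and add nothing when the count is set beside that share. In IL-27 it was 7 of 18, 2 higher, of Scd1 and Acly, and the same 5 lower, against 14.7% of all. Of the calls in medium across all probe sets 46.4% were higher in STAT3-deficient cells, and 11.4% with median centring, which moved the median of all probe sets by -0.36, and 64.1% with the signals as deposited, which moved it by 0.18. In IL-27 the share was 50.3%, and 15.5% with median centring, which moved the median by -0.19. Values between genotypes are therefore relative to the scaling. Of the 7 tested B cell markers 4 were higher in STAT3-deficient cells in both comparisons, and of the 7 tested myeloid markers 2 were higher and 2 lower in medium. With the marker covariate, which follows the genotype, 0 of the 18 were called in medium and 1, Elovl6 1417404_at, in IL-27.

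Elovl1, which makes very long saturated and monounsaturated chains, was lower without STAT3 on all 3 tested probe sets. On 1455994_x_at the signals were 1522, 1590.2 and 1272 in STAT3-deficient cells with IL-27, 1848, 1279 and 1376 with IL-6 and 1029, 1499.6 and 1435 in medium. In WT cells they were 2716, 2379 and 2414 with IL-27, 2516, 2539 and 2496 with IL-6 and 2891, 2703 and 2672 in medium. Every STAT3-deficient array was below every WT array. On 1456530_x_at the means were 2009 ± 216, 1942 ± 64.8 and 1948 ± 179.6 in STAT3-deficient cells with IL-27, IL-6 and medium, and 2919 ± 397, 2924 ± 177 and 3199.7 ± 356 in WT cells (SD, n = 3 each). The suffix _x_at marks probe sets whose probes may also match other transcripts. In medium Elovl1 was lower in STAT3-deficient cells, with a log2 change of -1.06 ± 0.14, or 2.08-fold (adjusted p = 8.26e-05), on 1455994_x_at, of -0.71 ± 0.12 on 1456530_x_at (adjusted p = 0.000423) and of -0.47 ± 0.10 on 1425676_a_at (adjusted p = 0.00351). In IL-27 the 3 changes were -0.77 ± 0.14, -0.53 ± 0.12 and -0.49 ± 0.10 (adjusted p = 0.00171, 0.00538 and 0.00392). With the marker covariate the values in medium were -1.19 (adjusted p = 0.11), -0.61 (adjusted p = 0.303) and -0.49 (adjusted p = 0.359). The covariate and the genotype move together.

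Scd1 1415964_at was above the median of its array on 3 of 3 arrays of each STAT3-deficient group. In WT cells it was so on 1, 2 and 0 of 3 with IL-27, IL-6 and medium, so it was dim there. Scd1 was called higher in STAT3-deficient cells than in WT cells, by 0.87 ± 0.29 in medium (adjusted p = 0.0382) and by 0.99 ± 0.29 in IL-27 (adjusted p = 0.0312). Its sign turned with the marker covariate, to -0.33 in medium and -0.35 in IL-27, and the call in medium was lost without any 1 of 5 of the 6 arrays compared and that in IL-27 without any 1 of 4 of the 6. Scd2 1415822_at was higher in medium by 0.91 ± 0.22 (adjusted p = 0.00636), a call lost with median centring and with the marker covariate, and the change in IL-27 was 0.23 ± 0.22 (adjusted p = 0.526). Acly had 4999.8, 4709 and 4961 in STAT3-deficient cells in medium and 4589, 3308 and 3645 in WT cells in medium on 1451666_at, with no overlap and a log2 change of 0.36 ± 0.11 (adjusted p = 0.0282), a call lost in 9 of 19 alternatives, among them without array 1 or 3 of STAT3-deficient cells and without array 2 or 3 of WT cells. The second Acly probe set, 1439459_x_at, gave 0.58 ± 0.12 (adjusted p = 0.00318) and the third, 1425326_at, -0.33 ± 0.18 (adjusted p = 0.182), so the probe sets of Acly disagreed in sign. With median centring the first 2 became -0.40 and -0.14, near the shift of all probe sets. Elovl5, which had 0.05 ± 0.08 in medium (adjusted p = 0.708), was at -0.78 with median centring.

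Other genes of lipid metabolism were read from lists around the pathway, each gene from its brightest probe set, where 7.68% of all 11971 genes were called with IL-6 and 3.94% with IL-27 in WT cells. In WT cells given IL-6, 1 of 8 tested genes of elongation and desaturation was lower and 0 were higher. It was Hacd3, a dehydratase of the elongation cycle that follows the Elovl step, at -0.92 ± 0.12 (adjusted p = 5.70e-05), and it was also the 1 lower with IL-27 (-0.71 ± 0.12, adjusted p = 0.00169). The IL-6 effect on Hacd3 differed between genotypes by 0.69 ± 0.18 (adjusted p = 0.0466), a call lost in 14 of 25 alternatives, among them without any 1 of 9 of the 12 arrays compared, with an adjusted p of up to 0.165. In STAT3-deficient cells limma called 0 of the 8 with either cytokine, with 0 at an unadjusted p under 0.05 for IL-6, where 8.14% of all genes were, and 1 for IL-27, where 15.7% were. Between the genotypes in medium, 4 of the 8 were higher and 1 lower without STAT3, where 25.6% of all genes were called. The higher ones were led by Elovl3 at 0.92 ± 0.24 (adjusted p = 0.0114) and Hacd4, another dehydratase, at 0.79 ± 0.28 (adjusted p = 0.0457). The desaturase Fads1 was at 0.66 ± 0.20 (adjusted p = 0.0205), a call lost with median centring and without array 1 or 2 of STAT3-deficient cells or array 2 of WT cells.

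In WT cells given IL-6, 1 of 12 genes of acyl-CoA supply and other synthesis steps was lower and 0 were higher, and the same counts held with IL-27. Both times it was Acss1, an acetyl-CoA synthetase of mitochondria, at -0.84 ± 0.12 with IL-6 (adjusted p = 7.11e-05) and -0.63 ± 0.12 with IL-27 (adjusted p = 0.00267). In STAT3-deficient cells with IL-27, where 4.47% of all genes were called, Acss1 was lower (-0.48 ± 0.12, adjusted p = 0.0242). Acsl5, which activates long chains, was higher there (0.64 ± 0.13, adjusted p = 0.00533). That call of Acss1 was lost in 8 of 19 alternatives, among them without array 2 or 3 with IL-27 and without array 1 or 3 in medium.

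IL-6 left 17 of 18 genes of SREBP and LXR control without a call in WT cells, and 1 was lower. It was Abcg1, a cholesterol exporter and target of LXR, at -0.77 ± 0.12 (adjusted p = 0.000289), which in IL-27 against IL-6 was higher by 0.69 ± 0.12 (adjusted p = 0.00225). Its IL-6 effect differed between genotypes by 0.97 ± 0.17 (adjusted p = 0.00323). Calls of this list in other comparisons included Mbtps2, lower with IL-27 in STAT3-deficient cells (-0.76 ± 0.20, limma adjusted p = 0.0385). Between genotypes in medium Abca1 (0.90 ± 0.16) and Prkab1 (0.42 ± 0.14) were called higher without STAT3 and Insig2 (-0.49 ± 0.12) lower. Of 18 genes of cholesterol synthesis and uptake, limma called 0 with either cytokine in either genotype. At an unadjusted p under 0.05 there were 3 with IL-27 and 0 with IL-6 in STAT3-deficient cells, and 2 with IL-27 and 0 with IL-6 in WT cells. Of all genes, 15.7% with IL-27 and 8.14% with IL-6 in STAT3-deficient cells, and 14.7% with IL-27 and 17.8% with IL-6 in WT cells, were under that p. In medium 2 of these 18 were higher and 7 lower in STAT3-deficient cells than in WT cells, with a list median of -0.34 against 0.03 over all genes. Of all genes 25.6% were called in that comparison. Fdps, which makes farnesyl diphosphate, was at -1.02 ± 0.15 (adjusted p = 0.000192) and Hsd17b7 at 0.93 ± 0.20 (adjusted p = 0.00343).

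Genes of fatty acid oxidation, the breakdown of the chain, moved in both directions. In WT cells 2 of 20 genes rose and 3 fell with IL-6, and 1 was higher and 2 lower with IL-27, where both lower calls were lost without any 1 of the 6 arrays compared. The lower ones with IL-6 were Hadh (-1.15 ± 0.22, adjusted p = 0.00172), Acaa2 (-0.99 ± 0.18, adjusted p = 0.00113) and Acadm (-0.64 ± 0.10, adjusted p = 0.000289), all enzymes of beta oxidation in mitochondria. Acadl, the dehydrogenase of long chains, was higher with both cytokines in both genotypes. In STAT3-deficient cells Acadl rose by 1.35 ± 0.14 with IL-27 (adjusted p = 2.31e-06) and by 1.05 ± 0.14 with IL-6 (adjusted p = 9.44e-05). In WT cells it rose by 1.26 ± 0.14 with IL-27 (adjusted p = 7.48e-06) and by 0.91 ± 0.14 with IL-6 (adjusted p = 0.000243). Its IL-6 effect differed between genotypes by 0.15 ± 0.20 (adjusted p = 0.854). In medium 0 of the 20 were higher and 7 lower in STAT3-deficient cells than in WT cells, where 25.6% of all genes were called, 12.3% lower. Among the lower was Slc25a20, the carnitine carrier of mitochondria (-1.18 ± 0.30, adjusted p = 0.00959). The list median was -0.25, beside 0.03 over all genes.

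Among 15 genes of glycerolipid synthesis, 1 rose and 1 fell in WT cells given IL-6. Dgat1, which makes triacylglycerol from diacylglycerol, was higher with IL-6 by 1.46 ± 0.17, or 2.74-fold (adjusted p = 9.82e-06), and with IL-27 by 1.15 ± 0.17 (adjusted p = 0.000271). In STAT3-deficient cells it rose with IL-27 by 0.69 ± 0.17 (adjusted p = 0.0253) and was at 0.45 ± 0.17 with IL-6 (adjusted p = 0.428). The call with IL-27 there was lost without array 1 or 3 with IL-27 and without array 1 or 2 in medium, among 6 of 19 alternatives. The IL-6 effect on Dgat1 differed between genotypes by -1.0 ± 0.24 (adjusted p = 0.0321), a call lost in 12 of 25 alternatives, among them without any 1 of 9 of the 12 arrays compared, with an adjusted p of up to 0.217. Lpin1, a phosphatidate phosphatase, fell in WT cells given IL-6 (-0.57 ± 0.13, adjusted p = 0.00839), a call lost without array 3 with IL-6 (adjusted p = 0.0636). Across the 6 lists, the list medians with IL-6 in WT cells ran from -0.17 to 0.07, beside -0.02 over all genes.

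**Figure D4:**
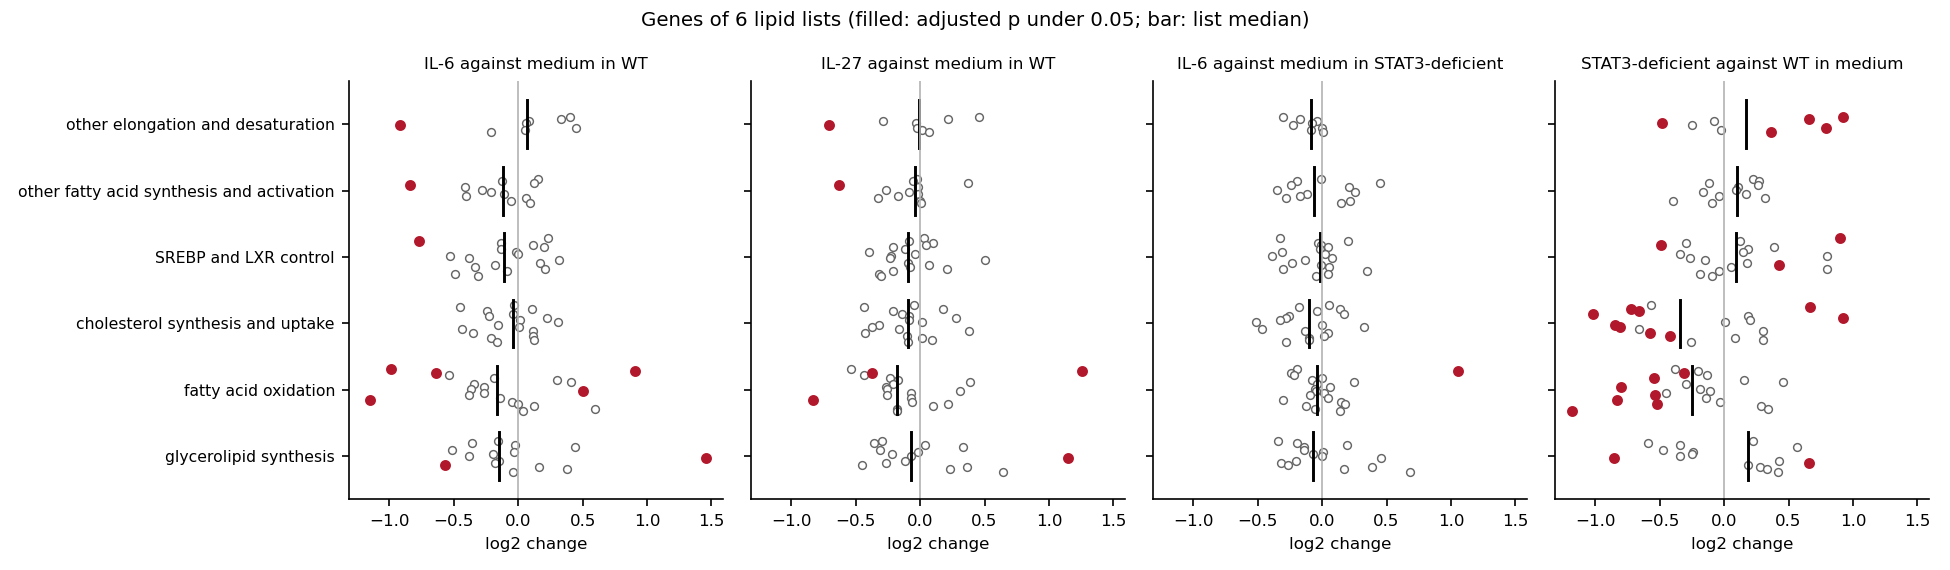
The log2 change of each gene of 6 lipid lists (rows) in 4 comparisons (panels), with filled points for an adjusted p under 0.05 and a black bar for the list median. With IL-6 in WT cells Dgat1 (1.46) is the gene farthest to the right and Hadh (-1.15) the one farthest to the left, and in STAT3-deficient cells Acadl (1.05) is the single filled point.

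The genes whose pattern over the 18 arrays was most like that of Elovl6 1417404_at were Ppp1cc (Pearson r = 0.973), Socs3 (r = 0.964), Mfsd6 (r = 0.96), Chmp4b (r = 0.96), Rab18 (r = 0.955) and Myo6 (r = 0.954). The arrays fall into 6 groups and share their normalisation, so these values describe the groups and carry no test. Socs3, the feedback inhibitor of IL-6 signalling, had means of 1163 ± 162, 733 ± 188 and 408 ± 14.2 in STAT3-deficient cells with IL-27, IL-6 and medium. Its WT means were 2829 ± 354, 10190 ± 902 and 532 ± 57.5 in the same order (SD, n = 3 each). All 6 genes had their highest mean in WT cells with IL-6 and their next highest in WT cells with IL-27, as Elovl6 had. Myo6, an unconventional myosin, had means of 299, 1430 and 143 in the WT groups in that order. Among the other members the likeness to Elovl6 ran from r = -0.814 in Scd2 to r = 0.7 in Fasn.

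**Figure D5:**
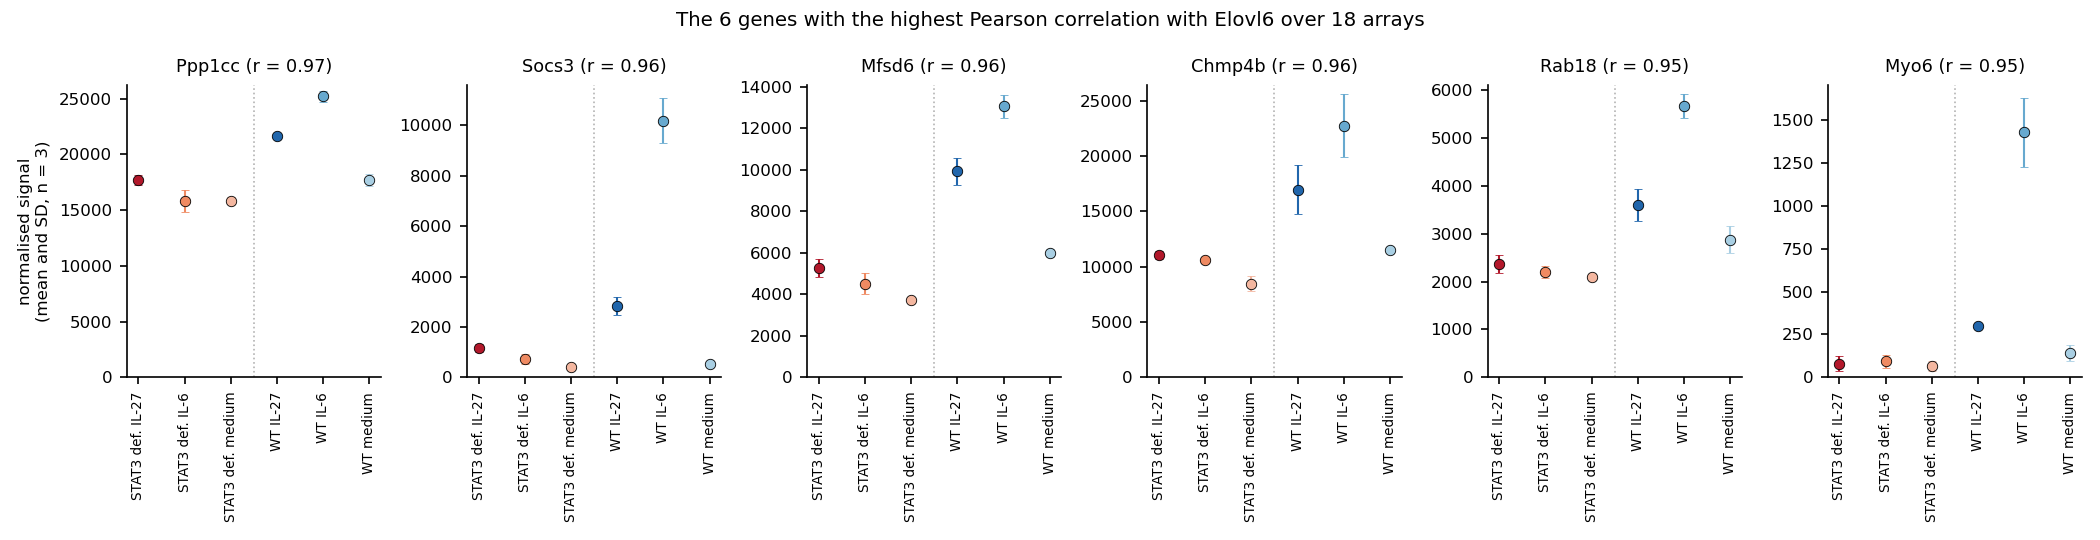
Mean normalised signal and SD (n = 3) in the 6 groups of the 6 genes most correlated with Elovl6 over 18 arrays, 1 panel per gene on its own axis from 0. Each is highest in WT cells with IL-6, as with Socs3 (mean 10190) and Myo6 (mean 1430).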

How the data were processed

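RNA of 18 samples, extracted with mirVana and labelled with MessageAmp II-Biotin per the labels' protocols, was hybridised to Affymetrix mouse arrays of 1 colour, with biological triplicates per the series' design text. The deposited values are probe set signal intensities on a linear scale, made by the authors with GCOS per the submitters' processing notes, whose version and summarisation method these sources do not give. Each array had the same trimmed mean of 500. Array medians ran from 131.5 to 190.4 in STAT3-deficient cells and from 104.4 to 126.8 in WT cells, so they followed the genotype without overlap. Quantile normalisation gives all arrays the same distribution and so removes this difference. Of 45037 probe sets without 64 controls, 34945 had 1 gene symbol, 932 several and 9160 none. Here log2(signal + 32) was quantile normalised, probe sets above the median of their array on at least 3 arrays were kept, and limma 3.58.1 in R 4.3.3 fitted 1 mean per group over all 18 arrays (lmFit, eBayes with a trend, two-sided, Benjamini-Hochberg over 26860 probe sets, threshold 0.05). The code was tested on simulated data. For 2-group comparisons the SE had a median of 0.207. A gene was read from the probe set with the highest mean, where a list was counted. From up to 4 called genes per list and comparison, with the largest changes, some were named in the text and others were not. The 6 genes most correlated with Elovl6 were also named. The members and lists were chosen with earlier results of these data known, and the comparison of the genotypes in IL-27 was added after the data were seen. Alternatives were the signals as deposited, median centring, added constants of 16 and 64, other filters, 1 probe set per gene, no variance trend, array weights, fewer arrays, a replicate block, the marker covariate and leaving out arrays.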

Additional observations from a re-analysis of the deposited data

Results flagged for a closer look

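The IL-6 effect on Elovl6 in STAT3-deficient cells minus that in WT cells was -3.59 on 1417404_at and -3.34 on 1417403_at, and both differences passed the test across all probe sets, which repeats the choice of the gene. The IL-27 effect differed by -1.72 on 1417404_at, 1 of 2 probe sets on the array to pass. That difference holds the arrays of WT cells in medium, on which Elovl6 was chosen, so its call repeats the choice too. The IL-6 effect on Elovl5 1415840_at differed by 0.48 in the other direction, with a smaller decrease in STAT3-deficient cells than in WT cells. Their causes were not tested.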

How the results depend on the processing

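Over the 10 comparisons, 33 of the results on member probe sets were called and had 625 values under alternatives, of which 536 kept the direction and the call, 85 lost the call and 4 turned sign. Results of Elovl6 are among the 33, and those on arrays it was chosen on repeat that choice, so their stability adds nothing. The 147 uncalled ones had 2877 values, of which 23 passed the threshold and 2 turned sign. The counts below show only how each setting moved the number of members called, mostly without the share of all features under that setting. Elovl6, chosen on the arrays of WT cells in IL-6 and in medium, is among the members counted. With 1 probe set per gene, which tests 10 genes in place of 18 probe sets, members called were 3 with IL-6 in WT cells, 1 with IL-27 in WT cells, 5 between genotypes in medium and 4 between genotypes in IL-27. With the B cell and myeloid marker covariate they were 2 in IL-27 against IL-6 in WT cells, 0 between genotypes in medium and 1 in IL-27, and calls over all probe sets fell to 159 in medium, against 6515 without it, and to 55 in IL-27, against 3960 without it. With IL-27 in STAT3-deficient cells, where 1 was called, it was 0 with the signals as deposited, with median centring and with only the arrays compared, and 2 with no filter and with the replicate block. The IL-27 effect between genotypes gave 2 with the signals as deposited. Leaving out each array in turn gave 3 to 5 with IL-6 and 3 to 4 with IL-27 in WT cells, 2 to 3 in IL-27 against IL-6 in WT cells, 0 to 1 with IL-27 in STAT3-deficient cells, 2 to 4 for the IL-6 effect between genotypes, 1 for the IL-27 effect, 6 to 8 between genotypes in medium, 5 to 8 in IL-27, and 0 for the other 2. With median centring, STAT3-deficient against WT in medium turned to -0.14 for Acly 1439459_x_at, -0.40 for Acly 1451666_at, -0.78 and -0.73 for the probe sets of Elovl5 and -0.18 for Prkab1, where the median of all probe sets was -0.36. With the marker covariate it turned to 0.024 for Dgat1 and -0.33 for Scd1, and to -0.35 for Scd1 in IL-27. The cause was not tested. Of all calls with IL-27 in STAT3-deficient cells 72.7% were higher, and 98.2% with median centring, and for the IL-6 effect between genotypes 56.4% and 72.4%. For the IL-27 effect it was 1 of 2, and 1 of 5 with the signals as deposited. The replicate numbers were not taken to pair the samples, since same-numbered arrays within a genotype had correlated deviations over 0.1 in 10 of 18 pairs (median 0.116) and not in all. Among differently numbered arrays it was 6 of 36 pairs (median -0.0427), so a partial pairing is possible. The genotypes differed in this. In WT cells arrays numbered 1 had 0.165 to 0.209 with each other, those numbered 3 had 0.129 to 0.186 and those numbered 2 had -0.0116 to 0.0647. No differently numbered WT pair was above 0.0956. In STAT3-deficient cells same-numbered pairs ran from -0.147 to 0.337 and differently numbered ones from -0.507 to 0.29. With the replicate block 6 were called with IL-6 and 4 with IL-27 in WT cells, and 9 between genotypes in medium. Of the tested members Elovl7 passed its array's median on the fewest arrays, 9 of 18.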
